A study of Mus musculus with 18 samples.

Results

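Smooth muscle contractile genes were followed through RNA-seq libraries of mouse colon, as a readout of how much muscle each library held. The 10 genes, *Myh11*, *Acta2*, *Tagln*, *Des*, *Cnn1*, *Actg2*, *Lmod1*, *Synm*, *Mylk* and *Smtn*, were chosen by name among the 47729 genes of the count table, and all 10 passed the filter on low counts that left 16937 genes for testing. Colon was taken from WT mice and from littermates lacking *Cldn2* (*Cldn2*KO), the gene for claudin-2 of the tight junctions, all on a C57BL/6 background. In each genotype, 3 libraries came from untreated controls, 3 from mice in recovery from DSS colitis (labelled DSS-Recovery, after oral dextran sulfate sodium, which damages the epithelium) and 3 from mice treated with azoxymethane, a colon carcinogen, and DSS (AOM/DSS). The labels state 1 AOM dose of 10 mg/kg and 3 DSS cycles at 2.5% w/v, without separate doses for the recovery mice. Mice were matched for age, but the ages and the cells in which *Cldn2* is lost were not given in the sources used here. The study describes its recovery and AOM/DSS groups for RNA-seq as holding as many mice as there are libraries here. No such number was found that names the controls, though a legend on genes changed in recovering mice gives 3 per group.

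The wall of the colon carries a muscularis mucosae under the mucosa and thicker outer layers of circular and longitudinal muscle, whose cells contract when calcium activates myosin light chain kinase and myosin pulls on actin filaments. Contractile genes of these cells share the serum response factor SRF, which binds a short element, the CArG box, and works with the cofactor myocardin. In bulk tissue, fewer muscle cells and less contractile RNA per muscle cell cannot be told apart.

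The element is shown for *Acta2*, *Synm* and 3 partner genes, and its part in the levels was not tested. RefSeq promoter windows of GRCm38.p6 were at hand for 7 of the 10 genes, and not for *Myh11*, *Tagln* and *Actg2*. The 250 bases before each start were searched on the transcribed strand for CC, 6 bases of A or T, and GG, which reads alike on both strands. None of the 7 held the exact element, which 1.47% of all 32851 windows did. With 1 of the 6 central positions allowed to be G or C, the element was found in *Acta2* and *Synm*, 2 of 7 genes, against 8.59% of all windows. Among 24 genes of the filament, dense body and transcription factor lists, 20 had windows, 28 in all. The exact element was held by 5 of these genes, *Myl9*, *Myl6*, *Vcl*, *Ldb3* and *Srf* itself. That count is per gene, while the shares above are per window. Capitals mark the element in the 30-base windows below.
*Acta2*, chr19:34255438-34255467, minus strand: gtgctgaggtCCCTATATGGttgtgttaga
*Acta2*, chr19:34255388-34255417, minus strand: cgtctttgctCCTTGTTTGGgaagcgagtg
*Synm*, chr7:67759962-67759991, minus strand: caacggggagCCTCATAAGGtgtcccagat
*Myl9*, chr2:156775293-156775322, plus strand: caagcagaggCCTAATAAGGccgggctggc
*Vcl*, chr14:20929161-20929190, plus strand: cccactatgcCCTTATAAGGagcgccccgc
*Srf*, chr17:46556225-46556254, minus strand: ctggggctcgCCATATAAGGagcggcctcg
The element began 84 and 34 bases before the RefSeq start of *Acta2* and 239 bases before that of *Synm*. GENCODE release M21 places both *Acta2* windows in an exon of *Acta2*, the *Synm* window in an exon of the opposite-strand transcript *Gm45102*, the *Srf* window in an intron of *Gm26904*, and the *Myl9* and *Vcl* windows between genes. A match is a description of letters, not a bound site.

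Across the 10 genes, the annotation in the table placed *Myh11* at chr16:14194527-14291408 and *Mylk* at chr16:34745210-35002420, *Des* at chr1:75360329-75368579 and *Lmod1* at chr1:135324807-135368065, *Cnn1* at chr9:22099281-22109630 and *Tagln* at chr9:45929628-45936058, *Actg2* at chr6:83512905-83536265, *Synm* at chr7:67730160-67759742, *Smtn* at chr11:3517523-3540612 and *Acta2* at chr19:34241090-34255336 (GRCm38). Every gene had at least 64 reads in every library, the lowest count being that of *Lmod1*, and *Tagln* reached 44172. Few reads could be shared between copies of these genes: of the 50-base stretches in their transcripts, 0.326% of those of *Acta2*, 0.34% of those of *Myh11* and 0.107% of those of *Mylk* occurred in another gene, and none of those of the other 7, *Actg2* included. Strand was not stated for the counting, so the level of *Tagln*, which overlaps *Pcsk7* on the other strand (up to 4391 reads), that of *Smtn*, which overlaps *Gm11946*, and that of *Synm*, which overlaps *Ttc23*, are uncertain to that extent. In the WT recovery libraries *Ttc23* had 213 to 319 reads beside 387 to 735 of *Synm*, *Gm11946* had 41 to 76 beside 230 to 598 of *Smtn*, and *Pcsk7* had 2757 to 4003 beside 3273 to 6237 of *Tagln*. In *Cldn2*KO recovery these were 163 to 291 beside 380 to 769, 47 to 113 beside 376 to 597, and 3712 to 4391 beside 4074 to 5762.

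Total counts were 17.6 to 27.4 M reads per library. *Cldn2* had 680 to 12389 reads in the 9 WT libraries and 1 to 12 in the 9 *Cldn2*KO libraries. One property cut across the labels: *Hoxa13*, *Hoxb13* and *Hoxd13*, homeobox genes of the posterior gut, summed to 445 to 838 CPM (a gene's reads scaled to a common library total) in 11 libraries but to 0.107 to 1.83 CPM in all 6 recovery libraries and in WT control 2. The study names distal colon as the tissue of the recovery libraries. Recovery and low posterior *Hox* RNA cannot be told apart in these data, beyond what WT control 2 shows. *Xist*, expressed in female cells, was above 10 CPM only in libraries 2 and 3 of each recovery group and of *Cldn2*KO AOM/DSS, and these groups thus held libraries of both kinds, while the study's methods describe the mice as matched for sex.

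The joint level of the contractile genes was highest in the untreated mice lacking *Cldn2* and lowest in recovery. Together the 10 genes took 0.963% ± 0.144 of all reads in the controls lacking *Cldn2* and 0.483% ± 0.119 in the WT controls (SD, n = 3 in every group). The share was 0.446% ± 0.236 in *Cldn2*KO AOM/DSS and 0.207% ± 0.145 in WT AOM/DSS. It was lowest in recovery, at 0.118% ± 0.0520 in WT and 0.119% ± 0.0324 in *Cldn2*KO mice.

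Summed CPM of the 10 genes, scaled with TMM factors, was 6194, 4731 and 4162 in the WT controls and 8386, 8942 and 10803 in the *Cldn2*KO controls. It was 1111, 2264 and 854 in WT recovery and 974, 1184 and 1645 in *Cldn2*KO recovery. In AOM/DSS it was 1759, 3207 and 631 in WT and 2916, 6380 and 2615 in *Cldn2*KO mice. Groups with neighbouring means overlapped for *Cldn2*KO AOM/DSS with WT controls, for WT AOM/DSS with *Cldn2*KO AOM/DSS, and for both recovery groups with WT AOM/DSS and with each other. Only the *Cldn2*KO controls lay above every library of the next group. The spread within a group was widest in WT AOM/DSS, where the highest library exceeded the lowest 5.09-fold, against 1.29-fold in *Cldn2*KO controls.

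**Figure D1:**
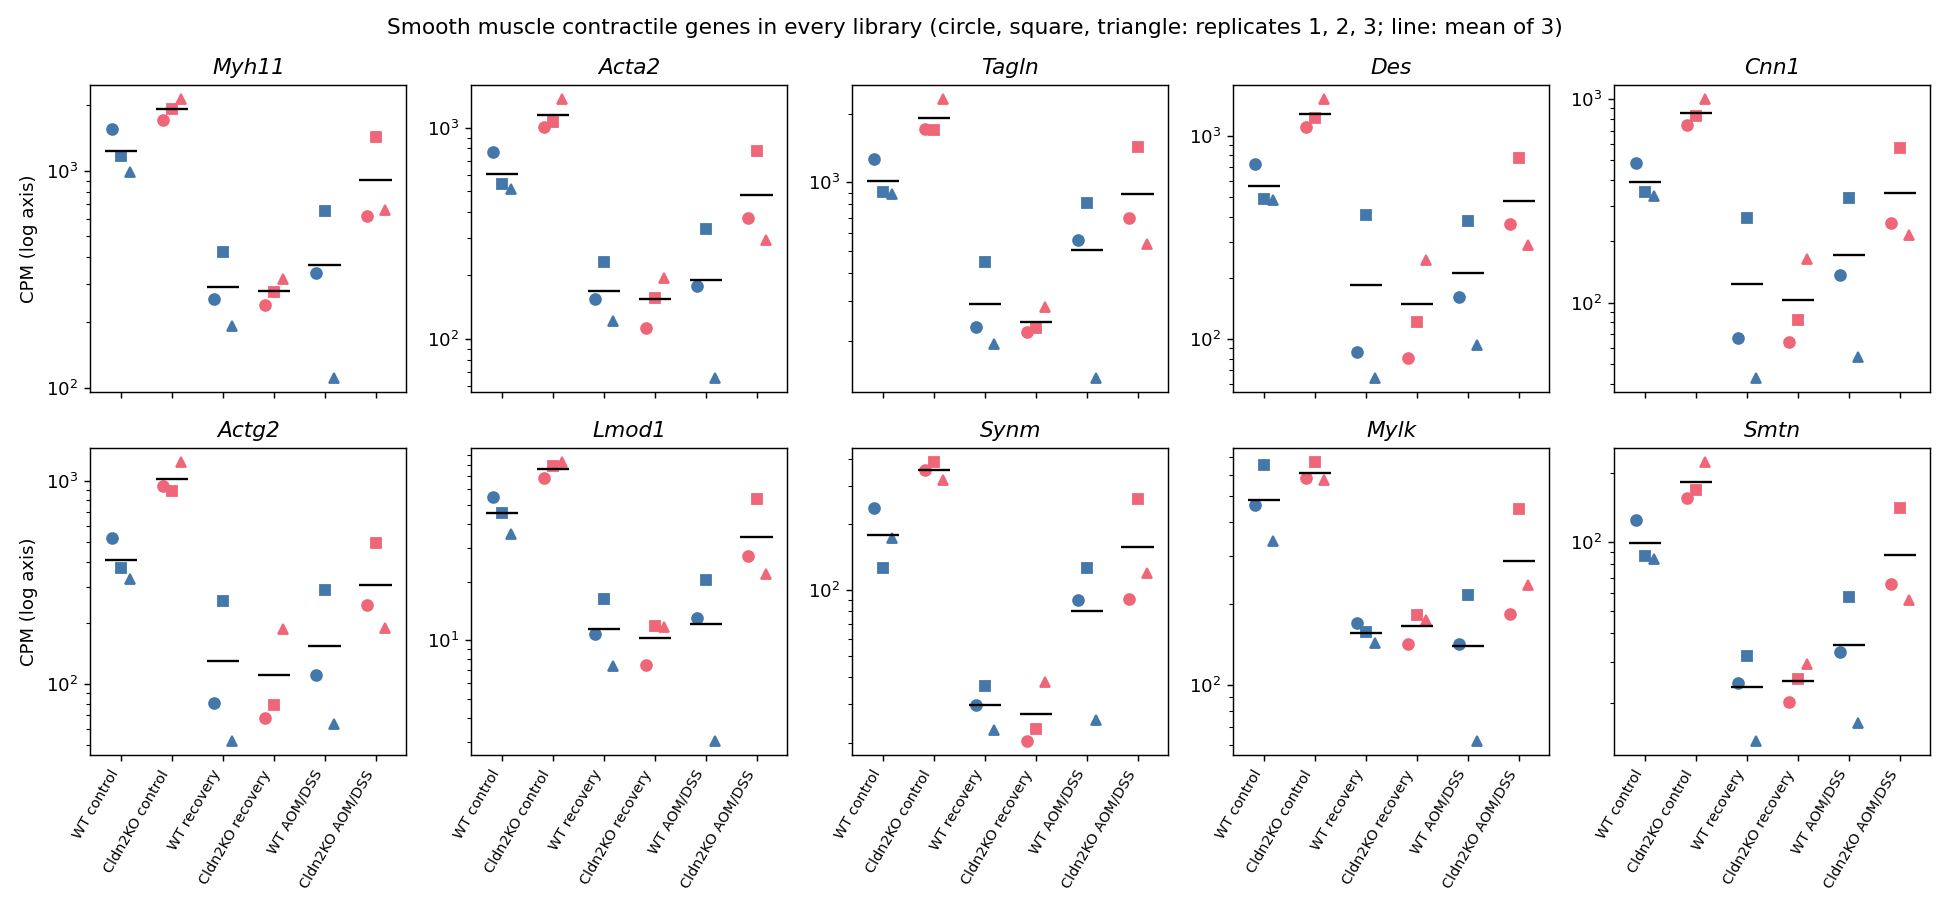
CPM of each of the 10 contractile genes on log axes in 18 libraries, with WT in blue and Cldn2KO in red, a marker for each replicate and a line at the mean of 3. In every panel both recovery groups sit below both control groups, and the libraries of WT AOM/DSS spread widely, from 111 to 653 CPM for Myh11.

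*Myh11*, the heavy chain of smooth muscle myosin, gave 1547, 1163 and 982 CPM in WT controls and 1712, 1929 and 2139 CPM in *Cldn2*KO controls. In recovery it gave 257, 421 and 193 CPM in WT and 241, 276 and 319 CPM in *Cldn2*KO mice. In AOM/DSS it gave 337, 653 and 111 CPM in WT and 620, 1423 and 660 CPM in *Cldn2*KO mice. The control groups of each genotype lay wholly above the treated groups of the same genotype.

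*Mylk*, the kinase that phosphorylates the myosin light chain, differed from the rest in the controls. It gave 463, 651 and 342 CPM in WT controls, where WT control 2 was the highest library, and 585, 671 and 575 CPM in *Cldn2*KO controls, so that the genotypes overlapped. It gave 169, 158 and 143 CPM in WT recovery and 142, 181 and 174 CPM in *Cldn2*KO recovery, the narrowest spread of the 10 genes in WT recovery (highest over lowest 1.19). In AOM/DSS it gave 142, 215 and 62.0 CPM in WT and 184, 447 and 235 CPM in *Cldn2*KO mice.

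Among the thin filament genes, *Acta2*, the vascular type of smooth muscle actin, gave 771, 540 and 513 CPM in WT controls, 1013, 1061 and 1371 CPM in *Cldn2*KO controls, 154, 232 and 122 CPM in WT recovery, 113, 156 and 195 CPM in *Cldn2*KO recovery, 178, 331 and 65.1 CPM in WT AOM/DSS, and 372, 775 and 295 CPM in *Cldn2*KO AOM/DSS. *Actg2*, the enteric type of smooth muscle actin, gave 521, 373 and 329 CPM in WT controls and 940, 892 and 1242 CPM in *Cldn2*KO controls. In WT recovery it gave 80.8, 256 and 52.3 CPM, and in *Cldn2*KO recovery 67.8, 79.1 and 186 CPM. Single libraries stood high within recovery for *Actg2*, replicate 2 in WT and replicate 3 in *Cldn2*KO mice, while for *Acta2* the same libraries stood out less. *Lmod1*, which nucleates actin filaments in smooth muscle, was the lowest of the 10, at 45.3 ± 9.92 CPM in WT controls, 76.8 ± 7.70 CPM in *Cldn2*KO controls, 11.5 ± 4.52 CPM in WT recovery and 10.3 ± 2.47 CPM in *Cldn2*KO recovery.

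*Cnn1* encodes calponin, an actin-binding protein that restrains the myosin ATPase. It gave 488, 352 and 333 CPM in WT controls, 748, 824 and 1002 CPM in *Cldn2*KO controls, 66.8, 260 and 42.5 CPM in WT recovery and 64.2, 82.4 and 164 CPM in *Cldn2*KO recovery. *Tagln* (transgelin), an actin cross-linker of the calponin family, averaged 1019 ± 210 CPM in WT controls and 1917 ± 359 CPM in *Cldn2*KO controls. Its means in recovery were 291 ± 137 CPM in WT and 243 ± 35.2 CPM in *Cldn2*KO mice. *Smtn* (smoothelin), found in fully contractile smooth muscle cells, averaged 98.4 ± 22.4, 182 ± 36.3, 23.3 ± 9.24 and 24.9 ± 4.63 CPM in those 4 groups in the same order.

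The intermediate filament genes differed in their spread in WT recovery. *Des* (desmin) gave 724, 488 and 482 CPM in WT controls and 1100, 1224 and 1515 CPM in *Cldn2*KO controls. It gave 86.4, 405 and 64.0 CPM in WT recovery, where replicate 2 exceeded replicate 3 6.33-fold, the widest spread of any of the 10 genes there, and 80.5, 121 and 245 CPM in *Cldn2*KO recovery. *Synm* (synemin), which joins desmin filaments to the cell membrane, gave 238, 127 and 172 CPM in WT controls, 353, 387 and 320 CPM in *Cldn2*KO controls, 29.9, 36.4 and 22.9 CPM in WT recovery and 20.3, 23.1 and 37.8 CPM in *Cldn2*KO recovery. *Synm* was also highest in WT recovery 2, but there that library exceeded replicate 3 by only 1.59-fold.

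Levels of different genes were compared per kb of exon. In WT controls *Tagln* led with 643 ± 133 CPM per kb, followed by *Acta2* with 341 ± 79.7 and *Actg2* with 262 ± 64.8 CPM per kb. *Myh11* had 186 ± 43.5, *Cnn1* 165 ± 35.9 and *Des* 150 ± 36.7 CPM per kb. *Mylk*, *Synm*, *Smtn* and *Lmod1* followed with 47.8 ± 15.4, 22.6 ± 7.07, 22.5 ± 5.11 and 11.5 ± 2.51 CPM per kb. Neighbours within the actin pair and within the trio *Myh11*, *Cnn1* and *Des* differed by less than the larger SD, as did *Synm* and *Smtn*.

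In WT mice recovering from colitis the contractile genes were lower than in untreated mice, by a median of 3.55-fold. All 10 genes had every recovery library below every control library, which 20.9% of all tested genes did. Of the 10, 7 passed the test for lower expression (edgeR quasi-likelihood, Benjamini-Hochberg adjusted p under 0.05 over all tested genes), against 12.2% of all tested genes called lower. *Synm* fell by 2.59 ± 0.50 (SE) on the log2 scale with an adjusted p of 0.00323, *Myh11* fell by 2.08 ± 0.49 with an adjusted p of 0.00873, and *Smtn* fell by 2.08 ± 0.44 with an adjusted p of 0.00487. *Mylk* fell by 1.63 ± 0.38 with an adjusted p of 0.00785. *Des*, *Cnn1* and *Actg2* were the 3 genes with the widest spread in WT recovery, each highest in replicate 2. They had log2 fold changes of -1.61, -1.67 and -1.65 and did not pass, with adjusted p of 0.0942, 0.0896 and 0.0697. DESeq2 called all 10, with 4592 genes called in all against 3767 by edgeR. Without WT recovery 2 all 10 were called and the median log2 fold change was -2.42, and without WT control 1 or WT recovery 3 the count was 4.

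In *Cldn2*KO mice recovering from colitis all 10 contractile genes fell, by a median of 7.65-fold, against 10.0% of all tested genes called lower in that comparison. Again every recovery library lay below every control library for all 10 (20.5% of all tested genes). *Synm* fell by 3.71 ± 0.52 with an adjusted p of 0.000552, *Actg2* fell by 3.21 ± 0.66 with an adjusted p of 0.00424, and *Des* fell by 3.10 ± 0.70 with an adjusted p of 0.00729. *Mylk* had the smallest change of the 10, a fall by 1.88 ± 0.38 with an adjusted p of 0.00374. The count stayed 10 without any single library of either group.

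Posterior *Hox* RNA was low in all recovery libraries, and the number of calls changed with whether it was in the fit. With an indicator of *Hoxb13* above 10 CPM in the fit, the median log2 fold change was -1.79 in WT and -2.76 in *Cldn2*KO mice, close to the values without it, but 3 and 0 of the 10 genes were called, with adjusted p up to 0.315 and 0.302. The median SE of the 10 genes was 0.63 and 0.85 with the indicator and 0.50 and 0.52 without it. That indicator separates recovery from control through WT control 2 alone, and no *Cldn2*KO control had low posterior *Hox* RNA. The *Cldn2*KO values with the indicator thus rest on that WT library. WT control 2, with 1.83 CPM of posterior *Hox* RNA, had a summed contractile level of 4731 CPM, within the range of the other WT controls and above all 6 recovery libraries.

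The larger median fold in *Cldn2*KO than in WT recovery was not shown to be a difference between genotypes. The interaction had a median log2 value of -1.08 over the 10 genes, all of them negative, from -1.56 for *Actg2* to -0.25 for *Mylk*. Without WT recovery 2 the median was -0.54. None was called, the lowest adjusted p being 0.354, none had an unadjusted p under 0.05, and DESeq2 called none. Over all tested genes 0.130% were called.

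**Figure D2:**
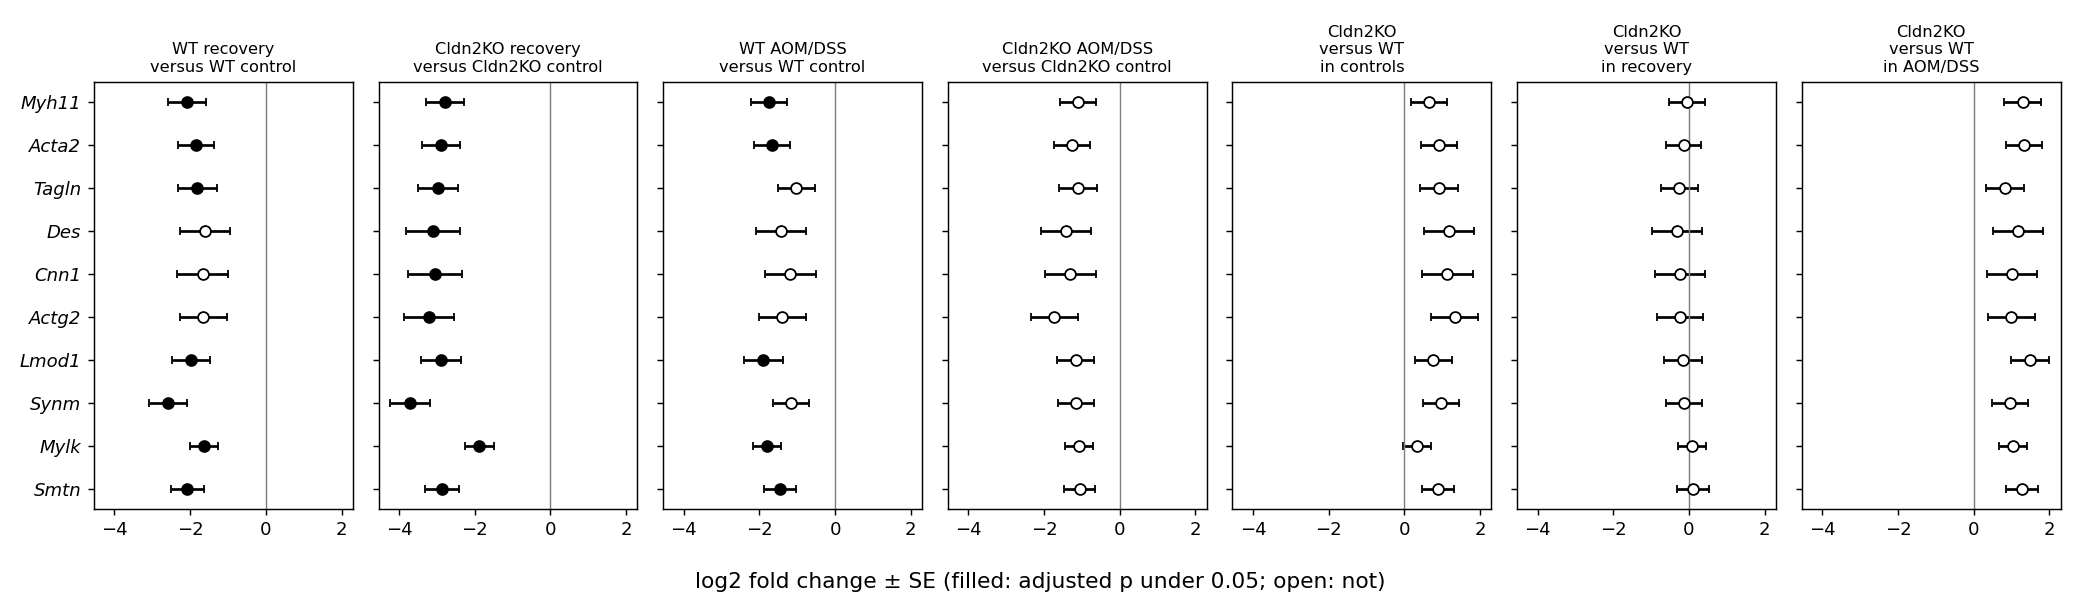
Log2 fold change with its SE for each contractile gene in 7 comparisons, filled where the adjusted p was under 0.05. All 40 points of the treated groups against their own controls lie left of 0, with 22 filled, and no point is filled where the genotypes are compared.

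In AOM/DSS the means of all 10 contractile genes lay below those of controls in both genotypes, with calls in WT but none in *Cldn2*KO mice. For all 10 genes each AOM/DSS library lay below each control library of its genotype, which 17.3% of tested genes did in WT and 14.1% in *Cldn2*KO mice. In WT mice the median was 2.72-fold lower and 5 of 10 genes were called lower, against 6.58% of all tested genes. *Mylk* fell by 1.80 ± 0.38 with an adjusted p of 0.0159, *Lmod1* fell by 1.89 ± 0.50 with an adjusted p of 0.0337, *Myh11* fell by 1.74 ± 0.49 with an adjusted p of 0.0371, *Acta2* fell by 1.67 ± 0.47 with an adjusted p of 0.0390, and *Smtn* fell by 1.46 ± 0.43 with an adjusted p of 0.0427. *Tagln* was the least changed of the 10, with a log2 fold change of -1.02 ± 0.50 and an adjusted p of 0.181. Without WT AOM/DSS 2 the median log2 fold change was -2.17 and 6 genes were called, and without WT AOM/DSS 3 it was -1.09. The WT calls rested on single libraries: the count was 0 without WT AOM/DSS 3 or without WT control 2, 1 without WT control 1 or WT AOM/DSS 1, 0 when only the 2 groups were fitted, 0 with the *Hoxb13* indicator and 1 without a filter on low counts.

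WT AOM/DSS 3 was the lowest of all 18 libraries for *Myh11*, *Acta2*, *Tagln*, *Lmod1* and *Mylk*. Its *Lmod1* level was 3.03 CPM, beside 13.02 and 20.5 CPM in the other libraries of the group. *Cldn2*KO AOM/DSS 2 was the highest of its group for every one of the 10 genes, with 775 CPM of *Des* beside 369 and 290 CPM.

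In *Cldn2*KO mice the median was 2.24-fold lower in AOM/DSS than in controls, with log2 fold changes from -1.73 for *Actg2* to -1.06 for *Smtn*. None of the 10 was called (adjusted p from 0.199 to 0.372), where 0.118% of all tested genes were called lower. An unadjusted p under 0.05 was reached by 9 of the 10, against 6.60% of all tested genes in that direction, and DESeq2 called none. The interaction of genotype with AOM/DSS called none, with a median log2 value of 0.20 whose sign was not fixed (-0.31 without *Cldn2*KO AOM/DSS 2, -0.18 without WT AOM/DSS 3, -0.01 without WT control 1, 0.82 without WT AOM/DSS 2 and -0.14 with an *Xist* indicator), 0 genes at an unadjusted p under 0.05 and 0.0118% of all tested genes called.

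Between genotypes the contractile genes were higher in *Cldn2*KO than in WT controls, by a median of 1.88-fold, without passing the test. *Actg2* differed most, with a log2 fold change of 1.33 ± 0.62, an unadjusted p of 0.0478 and an adjusted p of 0.376, and it was the 1 gene of the 10 with an unadjusted p under 0.05, which 4.25% of all tested genes had in that direction. *Des* followed with 1.18 ± 0.66 and *Cnn1* with 1.13 ± 0.67, and *Mylk* had the smallest difference, 0.33 ± 0.37. For 9 of 10 genes, all but *Mylk*, the *Cldn2*KO libraries lay above all WT libraries, which 11.6% of all tested genes did. None was called, where 1.17% of all tested genes were, and DESeq2 also called none. Without each control library in turn the median log2 fold change stayed between 0.74 and 1.11. Summed epithelial markers were lower in *Cldn2*KO controls (14641 to 17666 CPM) than in WT controls (18943 to 19742 CPM), and so were endothelial markers (44.7 to 53.7 against 55.2 to 72.4 CPM), with no overlap and no gene of either list called. The median log2 fold changes were -0.23 for epithelial, -0.37 for endothelial, -1.18 for leukocyte and -1.62 for mesothelial markers. None of the 5 leukocyte and none of the 4 mesothelial markers was positive, and 1 leukocyte gene, *Cd3e*, was called lower. Leukocyte sums overlapped between *Cldn2*KO and WT controls (64.0 to 307 against 130 to 244 CPM), as did mesothelial sums (0.986 to 10.8 against 8.23 to 28.0 CPM). *Cldn2*KO control 3 had the highest leukocyte sum. Other lists had positive medians, without a call: filament partners 0.62 (8 of 8 positive), dense body and adhesion 0.71 (10 of 11), fibroblast 0.27 (6 of 8), pericyte 0.07 (4 of 6) and nerve and glia 0.02 (9 of 15). Their part in the difference was not tested.

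In recovery the genotypes were close, with a median log2 fold change of -0.14 and a range from -0.31 for *Des* to 0.10 for *Smtn*, and overlapping libraries for all 10 genes. The median changed sign with the library left out, between -0.38 and 0.23. None of the 10 was called (0.974% of all tested genes were) and none had an unadjusted p under 0.05. In AOM/DSS the *Cldn2*KO mean was higher for all 10 genes, by a median of 2.16-fold, from 0.82 ± 0.50 on the log2 scale for *Tagln* to 1.49 ± 0.50 for *Lmod1*. The median log2 fold change of 1.11 was 0.63 without *Cldn2*KO AOM/DSS 2, 0.76 without WT AOM/DSS 3, 1.82 without WT AOM/DSS 2 and 0.68 with an *Xist* indicator, *Xist* being high in *Cldn2*KO libraries 2 and 3 only. *Lmod1* alone had all *Cldn2*KO libraries above all WT libraries, 1 of 10 genes against 4.92% of all tested genes. None was called at adjusted p (0.862 to 0.881), 5 had an unadjusted p under 0.05 (3.32% of all tested genes in that direction), DESeq2 called none, and 0.00590% of all tested genes were called. Other lists had positive log2 fold changes in the same comparison, without a call: 15 of 15 nerve and glia markers (median 0.96), 6 of 6 pericyte, 6 of 6 endothelial, 7 of 8 fibroblast and 9 of 9 epithelial markers. Mesothelial and leukocyte markers went the other way, with 0 of 4 (median -1.44) and 1 of 5 (median -1.11) positive, also without a call, beside a median of 0.00 over all tested genes. Their part in the contractile levels was not tested.

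The contractile genes moved together from library to library. Pearson's r of log2 CPM over the 18 libraries, which share the contrast between groups and the scaling of each library, ran from 0.854 to 0.995 over the 45 pairs of genes, with a median of 0.96. After the mean of each group was taken out, the median was 0.89 and the lowest 0.55. *Mylk* was the least like the others, with a median r of 0.89.

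Outside the 10, the genes most like their mean log2 CPM over the 18 libraries, among those with a mean of at least 5 CPM, were *Tpm2* (r = 0.99), *Jph2* (0.98), *Synpo2* (0.98), *Hspb6* (0.98), *Tpm1* (0.98), *Ehd2* (0.97), *Optc* (0.97), *Pgm5* (0.97), *Flna* (0.97) and *Rbpms2* (0.97). The median r of all genes compared was -0.06. *Tpm2* and *Tpm1* encode tropomyosins of the thin filament, *Jph2* a junctophilin that ties the sarcoplasmic reticulum to the cell membrane, *Synpo2* a Z-disc and dense body protein and *Flna* the actin cross-linker filamin A.

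Ratios to *Myh11* within a library varied less for some genes than for others. *Lmod1* ranged over 0.0274 to 0.0437 of *Myh11* in CPM over the 18 libraries and *Acta2* over 0.448 to 0.641. *Des*, *Cnn1* and *Actg2* moved as a trio. *Des* stood at 0.420 to 0.492 of *Myh11* in WT controls and at 0.634 to 0.708 in *Cldn2*KO controls, *Cnn1* at 0.302 to 0.339 and 0.427 to 0.469, and *Actg2* at 0.321 to 0.337 and 0.463 to 0.581. The ratios of these 3 genes, of *Acta2* (0.464 to 0.522 in WT and 0.550 to 0.641 in *Cldn2*KO controls) and of *Smtn* did not overlap between the genotypes in controls and were higher in *Cldn2*KO mice. These were 5 of 9 genes compared, against 0.756% of all tested genes. *Myh11* itself had a log2 fold change of 0.65 between genotypes in controls, and all tested genes a median of -0.01. Division by *Myh11* thus lowers the ratio of a gene that does not differ, and with it that share. Without the division 11.6% of all tested genes lay apart and higher, so no conclusion is drawn from the 0.756%.

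In WT recovery *Des* over *Myh11* was 0.336, 0.962 and 0.332, and in *Cldn2*KO recovery it was 0.334, 0.440 and 0.769. *Cnn1* and *Actg2* were likewise highest in WT recovery 2, at 0.618 and 0.609, and in *Cldn2*KO recovery 3, at 0.516 and 0.583. WT recovery 2 also differed from its group in gene length: genes under 1.5 kb had a median log2 ratio of 0.53 to the mean of the other WT recovery libraries and genes over 6 kb one of -0.24. In *Cldn2*KO recovery 3 those medians were 0.01 and -0.01. The part of length in the ratios was not tested. *Actg2*, *Cnn1* and *Des*, with 1.56, 2.37 and 3.75 kb of exon, are shorter than *Myh11* with 6.63 kb. So are *Lmod1*, *Smtn* and *Acta2*, with 3.95, 4.38 and 1.78 kb. The ratios of *Lmod1* and *Smtn* in WT recovery 2 were 0.0389 and 0.0760, each between the other libraries of the group. That of *Acta2* was 0.551, the lowest of the group. *Tagln*, with 1.59 kb, had its highest ratio of the group there, and *Mylk* and *Synm*, with 10.2 and 7.93 kb, had their lowest.

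*Mylk* over *Myh11* was 0.374 to 0.740 in WT recovery and 0.547 to 0.658 in *Cldn2*KO recovery, against 0.269 to 0.348 in *Cldn2*KO controls. In the WT controls it was 0.299 and 0.348 in replicates 1 and 3 and 0.560 in replicate 2, the control with low posterior *Hox* RNA. *Synm* went the other way, at 0.0838 to 0.119 in the 6 recovery libraries, 0.109 in WT control 2, and 0.150 to 0.206 in the other 5 controls. *Tagln* over *Myh11* was 1.24 to 1.65 in WT AOM/DSS, above the 0.778 to 1.12 of all other libraries.

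**Figure D3:**
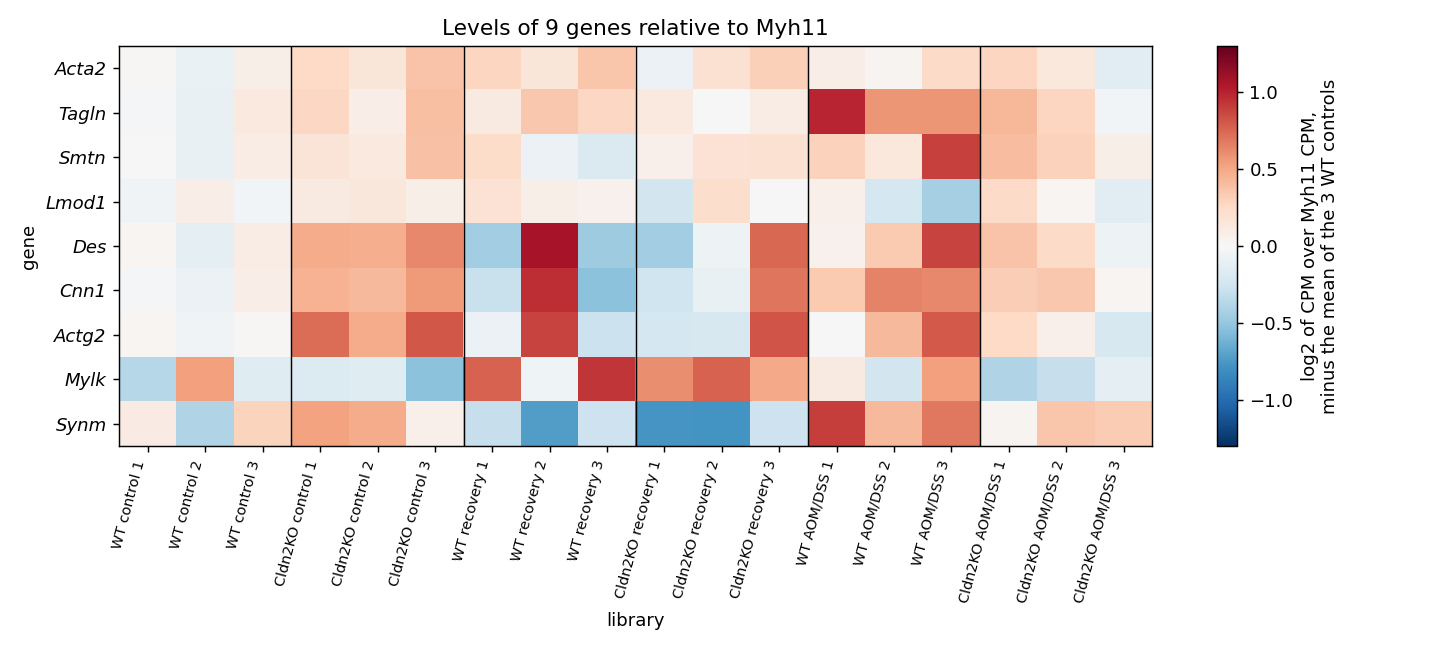
Log2 of each gene's CPM over Myh11 CPM, minus the mean of the 3 WT controls, for 9 genes (rows) in 18 libraries (columns), red for higher and blue for lower. Des, Cnn1 and Actg2 are red together in the Cldn2KO controls, WT recovery 2, Cldn2KO recovery 3 and WT AOM/DSS 3, where the Des ratio itself is 0.634 to 0.962. All 3 are also above 0, with smaller Des values, in WT AOM/DSS 2, Cldn2KO AOM/DSS 1 and 2 and WT control 3. Mylk is red where Synm is blue in WT control 2 and most recovery libraries.

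Partner genes were taken from lists by role. Of 8 filament partners, 5 were called lower in WT recovery and 6 in *Cldn2*KO recovery, with median log2 fold changes of -1.23 and -2.13. Of all tested genes, 12.2% and 10.0% were called lower in these comparisons, 6.58% in WT AOM/DSS and 0.118% in *Cldn2*KO AOM/DSS, and the counts of the lists that follow stand beside those shares. *Cald1*, whose product caldesmon binds actin and tropomyosin, fell by 1.98 ± 0.35 in WT and fell by 2.74 ± 0.36 in *Cldn2*KO mice, with adjusted p of 0.00197 and 0.000328. *Ppp1r12b*, a subunit of myosin phosphatase, fell by 2.26 ± 0.40 in WT and fell by 2.37 ± 0.40 in *Cldn2*KO mice, with adjusted p of 0.00204 and 0.00127. *Tpm1* fell by 1.07 ± 0.21 in WT and fell by 1.57 ± 0.21, with adjusted p of 0.00296 and 0.000343. In WT AOM/DSS 3 of the 8 were called lower, *Ppp1r12b*, *Tpm2* and *Tpm1*, and in *Cldn2*KO AOM/DSS none was.

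Of 11 genes of dense bodies and adhesion plaques, which anchor the filaments, 7 were called lower in each recovery comparison, 1 in WT AOM/DSS, near the 6.58% of all tested genes, and 0 in *Cldn2*KO AOM/DSS. *Flna* fell by 1.87 ± 0.35 in WT recovery and fell by 2.39 ± 0.35 in *Cldn2*KO recovery (adjusted p of 0.00244 and 0.000643), and fell by 1.27 ± 0.34 in WT AOM/DSS, with an adjusted p of 0.0337. Its levels were 827, 615 and 549 CPM in WT controls and 189, 212 and 143 CPM in WT recovery. *Synpo2* and *Pgm5* were also called lower in WT recovery, and *Csrp1* and *Synpo2* in *Cldn2*KO recovery.

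Of 13 genes for calcium handling, channels and receptors, 6 were called lower in WT recovery and 8 in *Cldn2*KO recovery, and none in AOM/DSS. *Kcnmb1*, the smooth muscle subunit of the calcium-activated potassium channel, fell by 2.58 ± 0.49 in WT recovery and fell by 3.78 ± 0.51 in *Cldn2*KO recovery, with adjusted p of 0.00274 and 0.000378. *Cacna1c*, the L-type calcium channel, was called lower in both and fell by 1.80 ± 0.31 in *Cldn2*KO recovery, with an adjusted p of 0.00123. *Tacr2*, a receptor for the tachykinins of enteric nerves, was called lower in WT recovery, and *Itpr1*, the calcium release channel, in *Cldn2*KO recovery.

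Of 5 transcriptional regulators, *Myocd*, *Srf* and *Foxf1* were called lower in WT recovery, *Myocd* alone in *Cldn2*KO recovery, and *Myocd* and *Srf* in WT AOM/DSS. *Myocd*, the gene of myocardin, gave 4.17, 3.27 and 3.95 CPM in WT controls and 8.73, 9.15 and 4.52 CPM in *Cldn2*KO controls. It gave 1.38, 1.36 and 0.710 CPM in WT recovery and 0.857, 0.835 and 1.48 CPM in *Cldn2*KO recovery. *Myocd* fell by 1.71 ± 0.49 in WT recovery, fell by 2.81 ± 0.50 in *Cldn2*KO recovery and fell by 2.22 ± 0.50 in WT AOM/DSS, with adjusted p of 0.0218, 0.00164 and 0.0191. *Srf* fell by 1.05 ± 0.21 in WT recovery and fell by 0.82 ± 0.21 in WT AOM/DSS, with adjusted p of 0.00342 and 0.0278. *Mrtfa* and *Mrtfb*, cofactors of SRF that shuttle with actin, were called in no comparison. In the genotype comparisons and in both interactions no gene of these 4 lists was called.

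Markers of other cells of the colon wall did not all follow the contractile genes. The 15 genes of enteric neurons and glia, cells that lie only in part between the muscle layers, had none called in either recovery comparison. Their median log2 fold changes were -0.46 in WT, where 2 of 15 were positive, and -0.01 in *Cldn2*KO mice. Their summed level was 113 to 150 CPM in WT recovery and 147 to 184 CPM in *Cldn2*KO recovery, against 162 to 221 CPM over the 6 controls, so that the WT recovery libraries lay below every control. In AOM/DSS they summed to 41.1 to 96.3 CPM in WT, where 6 of 15 were called lower, and to 61.2 to 175 CPM in *Cldn2*KO mice, where 0 of 15 were called and replicate 2 lay within the range of the controls. *Tubb3*, *Elavl4* and *Uchl1*, all neuronal, were the leading calls, with log2 fold changes of -2.19 ± 0.36, -2.02 ± 0.42 and -1.96 ± 0.42 in WT AOM/DSS and adjusted p of 0.00562, 0.0147 and 0.0159. Within AOM/DSS, *Cldn2*KO replicate 2 and WT replicate 2 were the highest of their groups for nerve markers and contractile genes, and also for fibroblast, pericyte and endothelial markers. In *Cldn2*KO replicate 2 these came to 1187, 174 and 74.9 CPM, against 413 and 428 CPM, 57.0 and 59.3 CPM, and 29.1 and 37.9 CPM in the other libraries of the group.

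Interstitial cells of Cajal, the pacemakers of the gut, are marked by *Kit* and *Ano1*, which went opposite ways in recovery. *Kit* rose by 1.02 ± 0.34 in WT recovery and 1.47 ± 0.35 in *Cldn2*KO recovery, with adjusted p of 0.0440 and 0.00846, where 10.0% and 9.43% of all tested genes were called higher. *Kit* gave 17.6, 14.8 and 18.1 CPM in WT controls and 31.5, 45.3 and 25.8 CPM in WT recovery. *Ano1* gave 258, 14.1 and 252 CPM in WT controls and 20.9, 29.8 and 17.4 CPM in WT recovery, so that WT control 2 stood with the recovery libraries. *Etv1*, the other marker listed for these cells, was not called, with 5.17 ± 0.73 CPM in WT controls and 2.89 ± 0.37 CPM in WT recovery. *Ano1* fell by 2.95 ± 0.66 in WT recovery and fell by 3.69 ± 0.68 in *Cldn2*KO recovery, with adjusted p of 0.00675 and 0.00230.

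Pericytes of small vessels also express *Acta2* and *Tagln*. The summed level of 7 pericyte markers was 174 to 215 CPM in WT recovery and 136 to 265 CPM in *Cldn2*KO recovery, beside 123 to 675 CPM in WT controls and 164 to 194 CPM in *Cldn2*KO controls, with *Abcc9* the only one called in both recovery comparisons. *Rgs5* made up most of the sum, with 148 to 184 CPM in WT recovery and 603 CPM in WT control 2. All 6 markers tested had negative log2 fold changes in WT recovery (median -0.72), and 3 of 6 did in *Cldn2*KO recovery (median -0.19). In AOM/DSS 3 of the 6 pericyte markers tested were called lower in WT mice and none in *Cldn2*KO mice.

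The 8 fibroblast markers were lower along with the contractile genes in recovery, at 202 to 319 CPM in the 6 recovery libraries against 617 to 1123 CPM in the 6 controls. Of the 8, 4 were called lower in WT and 5 in *Cldn2*KO recovery, led by *Col3a1*, which fell by 1.82 ± 0.34 and fell by 2.51 ± 0.35 with adjusted p of 0.00262 and 0.000496. None was called in AOM/DSS. Endothelial markers gave 3 of 6 called lower in WT recovery and none elsewhere. The 9 epithelial markers gave 5 called lower in WT recovery and 5 in WT AOM/DSS, with 1, *Cdx2*, called higher in *Cldn2*KO recovery. *Cdx2* was high in the libraries where posterior *Hox* RNA was low, at 214 to 242 CPM in the 6 recovery libraries, 337 CPM in WT control 2 and 13.6 to 31.0 CPM in the other 11 libraries.

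Mesothelial markers, from the outer coat next to the longitudinal muscle, were 22.6 to 42.5 CPM in WT recovery and 7.01 to 33.2 CPM in *Cldn2*KO recovery. They were 8.23 to 28.0 CPM in WT controls and 0.986 to 10.8 CPM in *Cldn2*KO controls, and *Wt1* was called higher in *Cldn2*KO recovery. In AOM/DSS they were 1.84 to 19.5 CPM in WT, with *Upk3b* and *Lrrn4* called lower, and 0.292 to 5.32 CPM in *Cldn2*KO mice. Skeletal muscle markers were low throughout, at 7.12 to 25.3 CPM for 10 genes, with 2 of the 7 tested called lower in WT recovery, 3 in *Cldn2*KO recovery and 1 in WT AOM/DSS. Of 5 leukocyte markers, 2 were called lower in WT recovery, 1 lower and 1 higher in *Cldn2*KO recovery, and 1 lower in *Cldn2*KO than in WT controls. The part of any of these cells, or of the region of colon sampled, in the levels of the contractile genes was not tested.

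**Figure D4:**
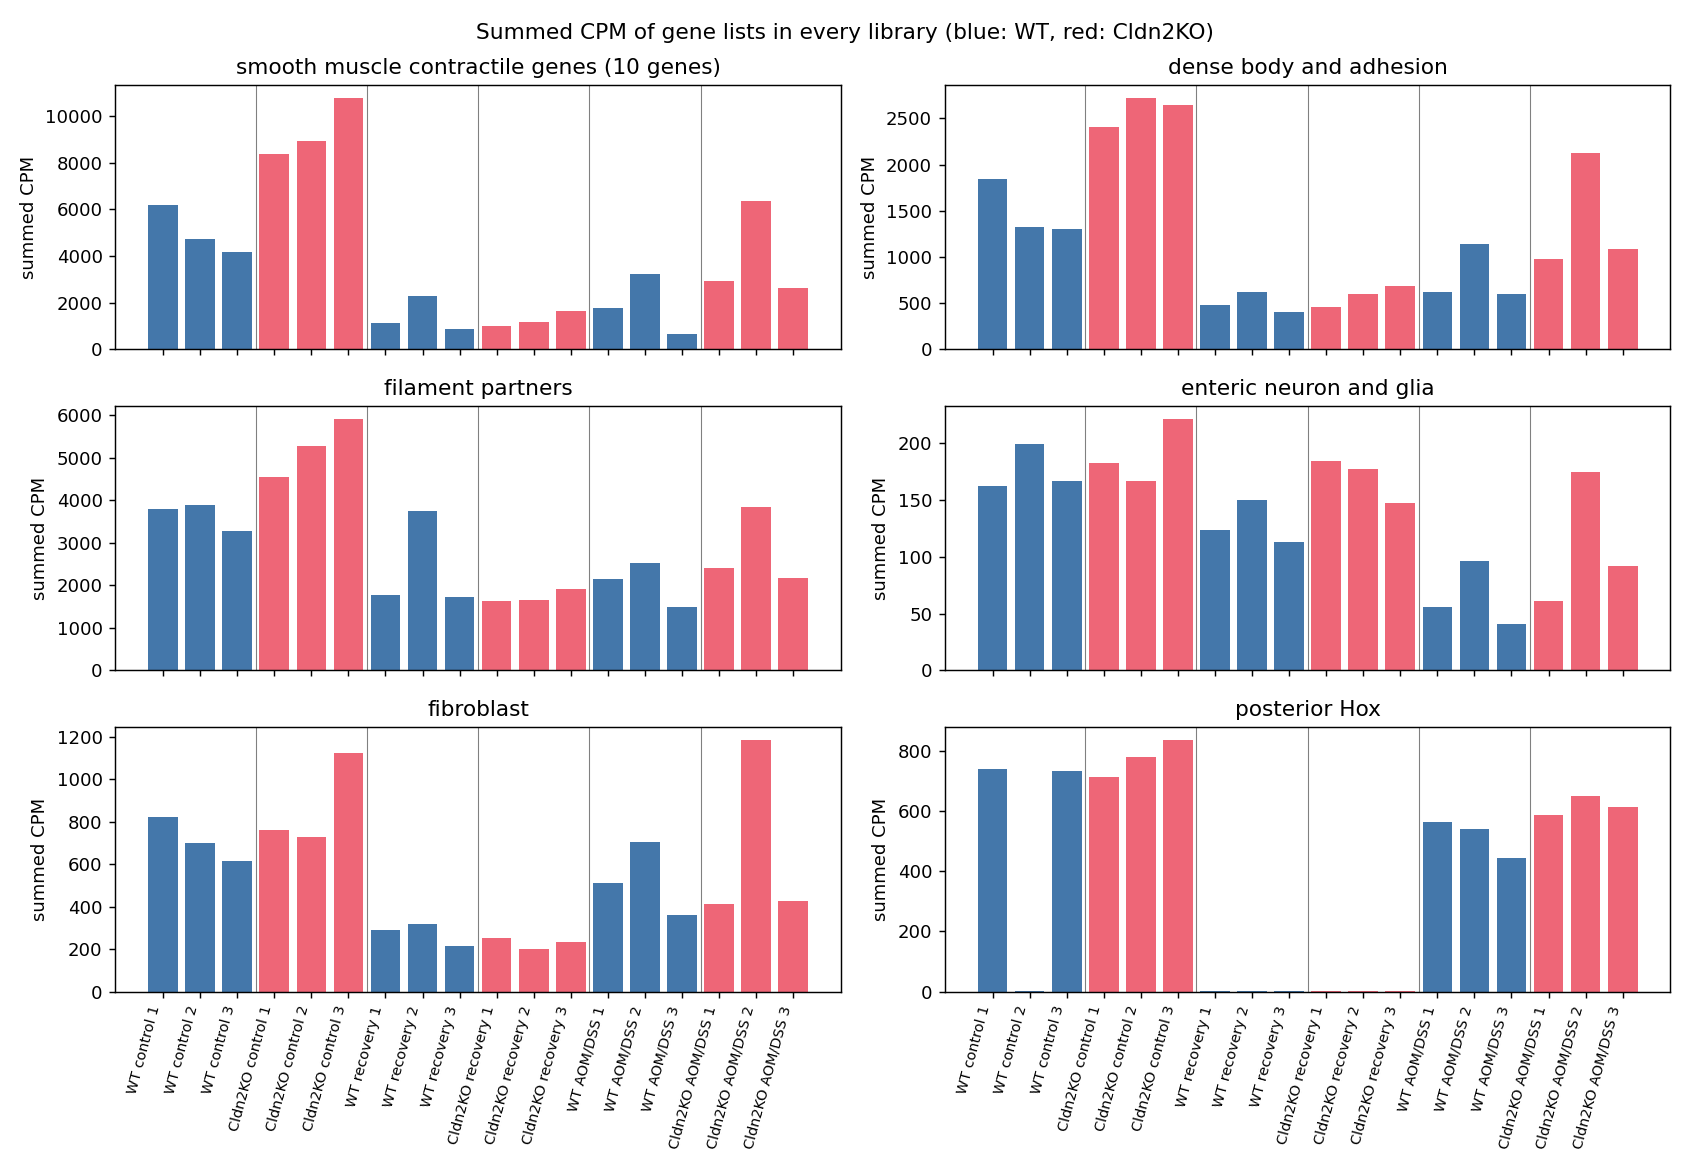
Summed CPM of the contractile genes and of 5 other lists in each of 18 libraries, WT in blue and Cldn2KO in red. Contractile genes and fibroblast markers are low in all 6 recovery libraries while the nerve markers there are at 113 to 184 CPM, lower in WT recovery than in any control, and the posterior Hox bars are near 0 in the recovery libraries and WT control 2.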

How the data were processed

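Total RNA was extracted with a Zymo Quick-RNA kit. The authors deposited raw read counts per gene, without normalization, in 36 columns, 18 libraries on 2 lanes. TopHat2 is named as aligner in the study's methods and HISAT2 in the submitters' processing notes, with featureCounts (Subread) and GRCm38. Versions, strand and treatment of multiply aligned reads were not given in the sources used here. The lanes of a library were added up, as their counts differed little more than sampling allows (chi-square over its degrees of freedom, 1.08 to 1.17). Replicate libraries differed far more (lowest value 11.9), so none was a copy. Symbols came from GENCODE M21 (47224 of 47729 genes).

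Genes were filtered with filterByExpr (30792 dropped), scaled with TMM, and fitted with edgeR 4.0.16 quasi-likelihood (R 4.3.3; robust, 1 mean per group over all 18 libraries, BCV 0.315). Genes were called at an adjusted p under 0.05 over all genes tested. Log2 CPM used a prior count of 2. Alternatives were DESeq2 1.42.0, RLE and upper-quartile scaling, no filter, only the groups compared, *Hoxb13* or *Xist* indicators (above 10 CPM), a replicate block and leaving out each library. The length comparison used a pseudocount of 0.5 CPM. Scripts were tested on simulated counts. Values are mean ± SD or log2 fold change ± SE. The p-values measure the spread between libraries, which may be technical where libraries do not stem from separate mice.

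The members, lists and tests were chosen with earlier results of these data known. All 10 members were described in every comparison. From other lists, up to 3 called genes with the smallest p per comparison, and 10 genes by likeness, could be named. Single levels (*Mrtfa*, *Mrtfb*, posterior *Hox* genes, *Xist*, *Rgs5*) were given where a result turned on them.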

Additional observations from a re-analysis of the deposited data

How the results depend on the processing

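The count of contractile genes called in *Cldn2*KO recovery was 10 under every alternative but the *Hoxb13* indicator, where it was 0. In WT recovery that indicator gave 3, and counts without single libraries ran from 4 to 10. In WT AOM/DSS the count of 5 became 1 without a filter on low counts, 0 with only the groups compared, 0 with the *Hoxb13* indicator, and 0 to 6 without single libraries. In *Cldn2*KO AOM/DSS the fit of only the groups compared called 1, *Actg2*. The cause was not tested. Comparisons of genotypes and interactions called 0 under all alternatives run.

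Of 790 refits of single genes in the 4 comparisons of treated mice with controls and in those of genotypes in controls and AOM/DSS, 725 kept direction and side of the threshold, 56 lost a call, 9 gained one and none changed sign. Outside these, the median of the 10 genes ran from -0.38 to 0.23 between genotypes in recovery and from -0.31 to 0.82 in the AOM/DSS interaction when single libraries were left out. Over all genes, the fit of only the groups compared called 7 in WT AOM/DSS against 1761, 920 in *Cldn2*KO AOM/DSS against 33, and 1819 in WT recovery against 3767. Control libraries carry numbers 1 to 3 in both genotypes. Deviations of same-numbered libraries correlated at 0.16, 0.00 and 0.08, and those of differently numbered libraries at -0.17 to 0.08. With 3 libraries per group these values cannot show whether the numbers pair them. The replicate block on those numbers called 0 of 10, as without it, with a median log2 fold change of 0.92 against 0.91 and 179 against 199 genes called in all. DESeq2 called 688 against 199 genes between genotypes in controls, 1370 against 165 in recovery and 601 against 33 in *Cldn2*KO AOM/DSS, with 0 of the 10 in each. In controls the median SE of the 10 genes was 0.48 on the log2 scale, beside the median difference of 0.91. With only the control groups fitted it was 0.22, beside 0.91, and the lowest adjusted p was 0.0706.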
